A study of Mus musculus with 4 samples.

Results

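The 9 genes described here encode the interleukin-1 (IL-1) family cytokines Il1a, Il1b, Il18 and Il33, the secreted inhibitors Il1rn and Il18bp, and the receptors Il1r1, Il1r2 and Il1rl1, in mouse colon with and without the colon carcinogen azoxymethane (AOM). They were taken as every probe whose gene name in the array files was one of these symbols, which gave 11 probes among 39429. Each gene had 1 probe except Il1rl1, which had 3. Of the 11 probes, 8 were well above background on all 4 arrays and all 11 on at least 1, by the detection test of the scanner software.

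The 4 arrays were each hybridized with 1 RNA pool of male 42-week-old mice on a B6.129 background of backcross generation 3. The groups were Pla2g3+/+ and Pla2g3-/- given saline as the vehicle, and Pla2g3+/+ and Pla2g3-/- given AOM at 10 mg/kg in weekly intraperitoneal injections over 6 weeks, with colons taken 28 weeks after the last of them. Pla2g3 encodes a secreted phospholipase A2. The labels call the tissue colon for all 4 pools and, in their descriptions, describe both AOM pools as colorectal cancer tissue, and each pool held RNA of 3 to 5 mice. Each group was a single array without replicates, so no comparison has a test, and a change past 2-fold is called here without a p-value.

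Signals were scaled to the array: a value of 1 is an intensity equal to the 75th percentile of all spots on that array. The intensity at that percentile ran from 647 to 1312 over the 4 arrays, between 64.8% and 69.4% of the spots were well above background, and no spot was saturated. Pla2g3, the targeted gene, was read by 3 probes. On the brightest, the vehicle arrays stood at 0.53 for Pla2g3+/+ and 0.653 for the one labelled Pla2g3-/-, and the AOM arrays at 0.232 and 1.39. In the same order, the second probe read 0.0836, 0.0884, 0.0304 and 0.203. The third read 0.0138, not well above background, then 0.0383, 0.0312 and 0.0859. The signal was thus higher on both arrays labelled Pla2g3-/- on all 3 probes. Whether the probes lie in the deleted part of the gene is not given in the sources used here. The colon epithelium markers were well above background on all 4 arrays for 8 of 8 genes. The vehicle array labelled Pla2g3-/- stood apart by its pancreatic acinar markers, whose 7 genes summed to a scaled signal of 41.3 against 0.336 in Pla2g3+/+ with vehicle. The AOM array labelled Pla2g3-/- stood apart by the squamous keratin Krt5, at 15.2 against at most 0.0559 on the others. Of 11 squamous epithelium genes, 7 had a ratio between the AOM pools on their brightest probe. Krt5 alone was over 2-fold higher in the pool labelled Pla2g3-/-, beside 15.1% of all genes. Another 5 were within 2-fold, and Krt4 was at least 7.33-fold lower. A dimmer probe of Trp63, also of this list, was at least 51.4-fold higher. The array of Pla2g3+/+ after AOM stood apart as well, by a smooth muscle sum of 28.9 against 466 to 516 on the others and by Aqp8, a water channel of colonocytes, at 0.357 against 54 to 99 there. No group has a second array, so no result could be given without these arrays, and the part of such tissue in the values was not tested.

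IL-1α and IL-1β bind the signalling receptor IL-1R1, which recruits an accessory chain and the adaptor MyD88 to switch on NF-κB. IL-1 receptor antagonist, the product of Il1rn, occupies IL-1R1 without signalling, and IL-1R2 is a decoy that binds the cytokine and carries no signalling domain. IL-18, which caspase-1 cleaves to its active form and IL-18 binding protein neutralizes, is made constitutively by intestinal epithelium, and IL-33 is an alarmin of epithelial and stromal nuclei. IL-33 acts through ST2, the product of Il1rl1, which is made as a membrane receptor, prominent on mast cells and type 2 lymphoid cells, and as a soluble form that captures IL-33.

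**Figure D1:**
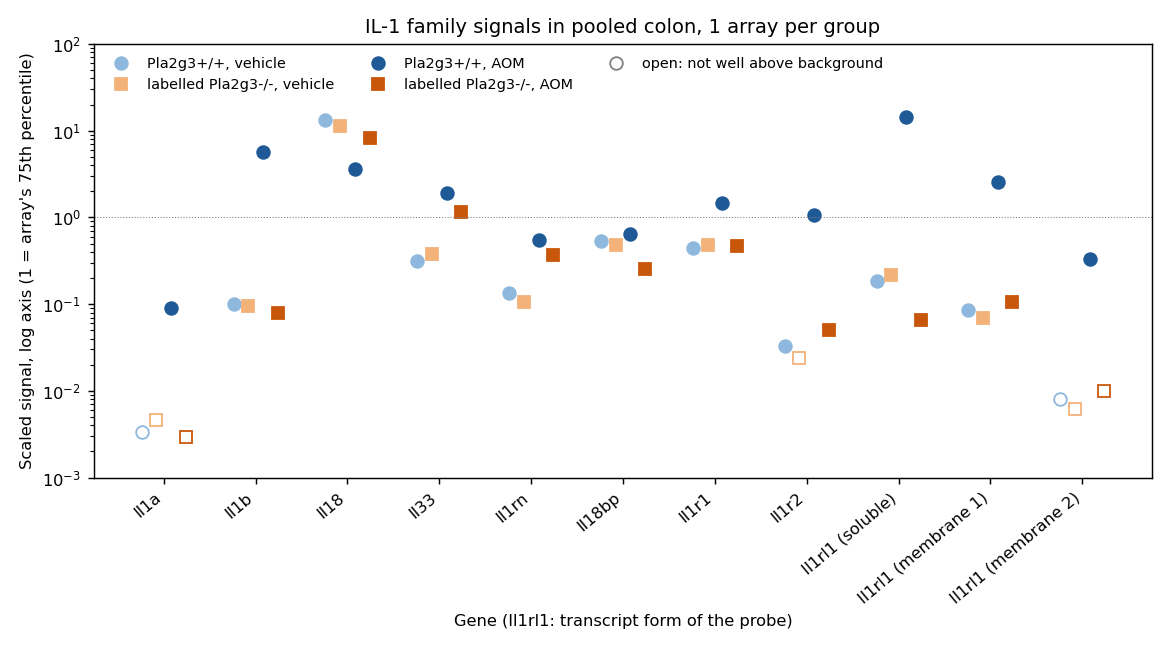
Scaled signal of each member probe (log axis, 1 = the array's 75th percentile) on the 4 arrays, with 1 point per array and open symbols for signals not well above background. The array of Pla2g3+/+ after AOM was the highest of the 4 for 10 of the 11 probes, the exception being Il18, and the other 3 arrays lay close together for Il1b.

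With vehicle, none of the 8 members that had a ratio differed by more than 2-fold between the pool labelled Pla2g3-/- and Pla2g3+/+. Of 16396 genes compared, 1.93% were higher and 1.32% lower past that threshold. The members' log2 ratios ran from -0.47 for Il1r2, a bound, to 0.30 for Il33, with a median of -0.12 beside -0.02 for all genes. Il1a was not well above background on either array and has no ratio.

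After AOM, 6 of the 9 members were over 2-fold lower in the pool labelled Pla2g3-/- than in Pla2g3+/+, beside 12.9% of 17195 genes. These were Il1rl1, Il1b, Il1r2, Il1a, Il1r1 and Il18bp. Il18 was over 2-fold higher, as were 15.1% of all genes, and Il33 and Il1rn were within 2-fold. The median log2 ratio of the members was -1.66 and that of all genes 0.03.

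Relative to vehicle, AOM went with a rise past 2-fold of 7 of 9 members in Pla2g3+/+, beside 15.1% of 17275 genes, and with a fall of Il18 alone, beside 22.4% of all genes. In the pool labelled Pla2g3-/-, 3 of the 8 members with a ratio rose past 2-fold after AOM, namely Il1rn, Il33 and Il1r2, beside 9.67% of 16518 genes. Il1rl1 was lower past 2-fold there, beside 15.0% of all genes, on its brightest probe. The 4 comparisons are built from the same 4 arrays, so each array enters a pair of them and they are not independent of each other.

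**Figure D2:**
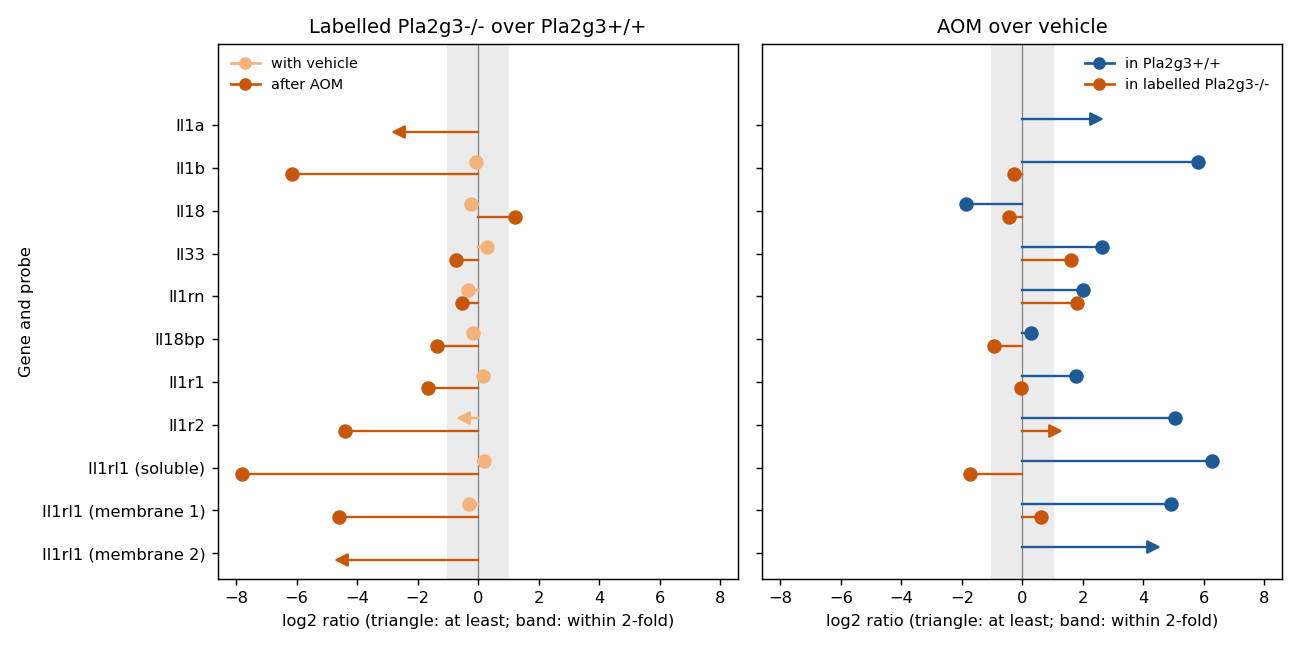
log2 ratios of the member probes, on the left for the pool labelled Pla2g3-/- over Pla2g3+/+ with vehicle and after AOM, on the right for AOM over vehicle in each genotype. Triangles mark bounds and the grey band spans 2-fold in either direction; every vehicle ratio on the left lies inside the band, while Il1b and the soluble-form probe of Il1rl1 reach -6.17 and -7.79 after AOM.

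Il1b, the main secreted IL-1 of activated myeloid cells, is the member with the best measured level, since its probe was printed at 10 positions on each array. The first 30 bases of that probe are shown to identify what was measured; the whole 60-base probe lies on chromosome 2, positions 129190347 to 129190406, minus strand of mm9. The exon it falls in was not determined here.
Il1b probe: aggttcctataatatggatgagaattttta
The scaled signal was 0.102 ± 0.0116 (SD, n = 10 spots) in Pla2g3+/+ and 0.0966 ± 0.00719 (SD, n = 10 spots) in the pool labelled Pla2g3-/- with vehicle. After AOM it was 5.66 ± 0.202 (SD, n = 10 spots) in Pla2g3+/+ and 0.0789 ± 0.00443 (SD, n = 9 spots) in the pool labelled Pla2g3-/-. The array of Pla2g3+/+ after AOM was therefore alone in its range, with its lowest spot at 5.43 and the highest spot of the others at 0.128.

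Il1b rose 55.8-fold with AOM in Pla2g3+/+. In the pool labelled Pla2g3-/- its log2 ratio of AOM to vehicle was -0.29, within 2-fold, and it was positive, at 0.55, without scaling of the arrays. After AOM Il1b was 71.8-fold lower in that pool than in Pla2g3+/+, the rank of 47 from the lowest among 17195 genes. Taken spot by spot, the log2 ratio ran from -6.28 to -6.10 over 9 positions, whereas with vehicle it ran from -0.37 to 0.16 over 10 positions and so spanned 0. These spreads are between spots of 1 array and hold no variation between mice.

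**Figure D3:**
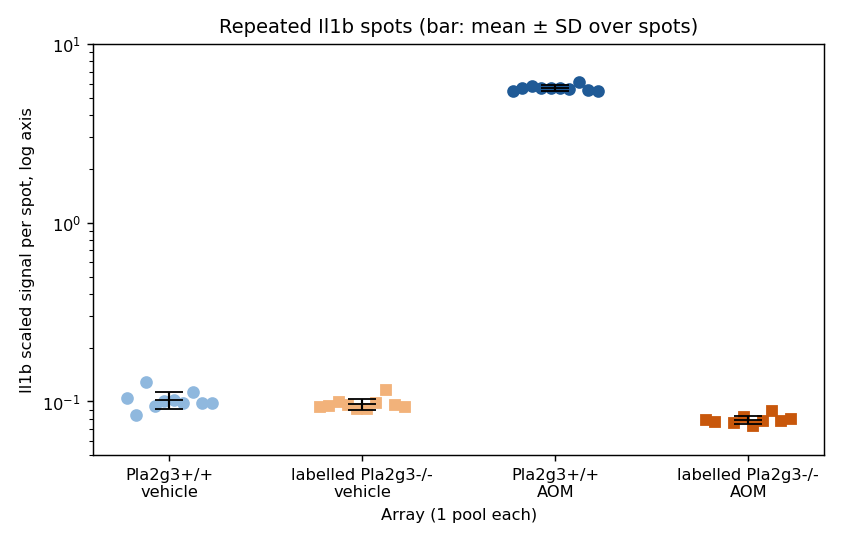
Scaled signal of every Il1b spot on the 4 arrays (log axis), with the mean and SD over spots as black bars; 1 outlier spot on the AOM array labelled Pla2g3-/- was left out. The 10 spots of Pla2g3+/+ after AOM lie between 5.43 and 6.13, and all spots of the other arrays lie below 0.13.

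Il1a, the IL-1 that epithelial cells hold inside and release on damage, was well above background on the array of Pla2g3+/+ after AOM only. Its scaled signal there was 0.0903, against 0.00335 in Pla2g3+/+ and 0.00456 in the pool labelled Pla2g3-/- with vehicle and 0.00296 in the latter after AOM. The ratio after AOM was thus a bound, at least 6.19-fold lower in the pool labelled Pla2g3-/-, and AOM over vehicle in Pla2g3+/+ was at least 5.46-fold. The bound sets the dim side at the dimmest signal that passed detection on its array. With normexp background correction followed by quantile normalization both ratios of Il1a were within 2-fold, the first at -0.94 on the log2 scale.

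Il18 had the opposite order. Its scaled signal was 13.2 in Pla2g3+/+ and 11.3 in the pool labelled Pla2g3-/- with vehicle, and 3.6 and 8.29 after AOM. Il18 was 3.67-fold lower with AOM in Pla2g3+/+, or within 2-fold, at a log2 ratio of -0.86, without scaling of the arrays. It was 1.36-fold lower in the pool labelled Pla2g3-/-, where the log2 ratio was 0.40 instead of -0.44 without scaling. Between the AOM pools it was 2.31-fold higher in the pool labelled Pla2g3-/-, the one member that was higher. The colon epithelium list moved with it between the AOM pools. In the pool labelled Pla2g3-/- after AOM 4 of the list's 8 genes were over 2-fold higher and none lower, beside 15.1% and 12.9% of all genes. The list's summed scaled signal was 573, 631, 200.1 and 489 over the pools labelled Pla2g3+/+ and Pla2g3-/- with vehicle and then with AOM. Slc26a3 and Aqp8, transporters of mature surface colonocytes, were 192-fold and 151-fold higher. Epcam, Krt8, Cdh1 and Vil1, also of this list, were within 2-fold on their brightest probes. They were 1.40-fold, 1.58-fold, 1.62-fold and 1.98-fold higher. With AOM in Pla2g3+/+, where Il18 was lower, Cdh1 was 1.56-fold higher. The smooth muscle list moved the same way, with 6 of 6 genes over 2-fold higher, beside 15.1% of all genes, and sums of 490.4, 516, 28.9 and 466. The part of these cells in the Il18 values was not tested. In a bulk pool, fewer cells of a type and less RNA per cell cannot be told apart.

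Il33, the alarmin, rose in both genotypes. Its scaled signal was 0.312 in Pla2g3+/+ and 0.383 in the pool labelled Pla2g3-/- with vehicle, and 1.92 and 1.16 after AOM. This was a 6.16-fold rise in Pla2g3+/+ and a 3.03-fold rise in the pool labelled Pla2g3-/-, and both AOM arrays lay above both vehicle arrays. Between the AOM pools the ratio was 1.66-fold lower in the pool labelled Pla2g3-/-, within 2-fold. The list of fibroblast and endothelium markers, cell types that carry nuclear IL-33, summed to 31.9 and 35.0 with vehicle and to 61.4 and 61.0 after AOM. Without Dcn, the proteoglycan decorin, which gives the greater part of these sums, they were 10.5 and 12.3 with vehicle and 24.5 and 15.4 after AOM. Between the AOM pools 6 of the 8 genes were lower in the pool labelled Pla2g3-/-, beside 8271 of 17195 genes in all. Their median log2 ratio was -0.65, beside 0.03 for all genes. Past 2-fold, 3 of the 8 were lower and 1 higher, beside 12.9% and 15.1% of all genes. Col1a1, a fibrillar collagen, was 4.63-fold lower and Cdh5, the endothelial cadherin, 3.23-fold lower. Pdgfra, a growth factor receptor of fibroblasts, was 2.92-fold lower, while Lum, a proteoglycan of collagen fibrils, was 3.07-fold higher. The part of these cells in the Il33 values was not tested.

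Il1rn, the receptor antagonist, also rose in both genotypes. Its scaled signal was 0.135 in Pla2g3+/+ and 0.107 in the pool labelled Pla2g3-/- with vehicle, and 0.543 and 0.372 after AOM. AOM went with a 4.04-fold rise in Pla2g3+/+ and a 3.49-fold rise in the pool labelled Pla2g3-/-, so the rise was 1.16 times as large in Pla2g3+/+. For Il1b the same comparison of the AOM ratios gave 68.2 times. Agonist and antagonist therefore moved unequally: on the log2 scale Il1b rose by 5.80 and Il1rn by 2.01 in Pla2g3+/+, while the differences were -0.29 and 1.80 in the pool labelled Pla2g3-/-.

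Il18bp, the secreted neutralizer of IL-18, changed little with AOM in Pla2g3+/+. Its scaled signal was 0.535 in Pla2g3+/+ and 0.48 in the pool labelled Pla2g3-/- with vehicle, and 0.648 and 0.253 after AOM. The ratio of AOM to vehicle was 1.21-fold in Pla2g3+/+ and 1.90-fold lower in the pool labelled Pla2g3-/-, both within 2-fold, although the first passed it without scaling. After AOM Il18bp was 2.56-fold lower in the pool labelled Pla2g3-/-, a size that normexp with quantile normalization brought within 2-fold, to -0.94 on the log2 scale. Il18 and its binding protein thus stood on opposite sides of Pla2g3+/+ in this comparison.

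Il1r1, the signalling receptor of IL-1, read 0.438 in Pla2g3+/+ with vehicle and 0.486 in the pool labelled Pla2g3-/-, as scaled signal. After AOM it was 1.48 in Pla2g3+/+ and 0.47 in the pool labelled Pla2g3-/-, so that 3 of the 4 arrays lay together and Pla2g3+/+ after AOM above them. The rise in Pla2g3+/+ was 3.38-fold and the log2 ratio in the pool labelled Pla2g3-/- -0.05, which was positive without scaling (0.80) and with the percentile taken over detected probes. After AOM Il1r1 was 3.15-fold lower in the pool labelled Pla2g3-/-.

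Il1r2, the decoy receptor, was near background with vehicle. Its scaled signal was 0.0329 in Pla2g3+/+ and 0.0238, not well above background, in the pool labelled Pla2g3-/-. After AOM it was 1.08 in Pla2g3+/+ and 0.0506 in the pool labelled Pla2g3-/-, so both AOM arrays lay above both vehicle arrays, but by unequal amounts. AOM over vehicle was 32.7-fold in Pla2g3+/+ and at least 2.13-fold in the pool labelled Pla2g3-/-, the latter within 2-fold with normexp and quantile normalization. Between the AOM pools Il1r2 was 21.3-fold lower in the pool labelled Pla2g3-/-, with rank 128 from the lowest of all genes.

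Il1rl1, which encodes ST2, had the largest ratio of the 9 members. Its 3 probes are shown by their first 30 bases because the array file assigns them to different transcripts: by the RefSeq entry it gives, the first lies in the short transcript of soluble ST2 and the others in the long transcript of the membrane receptor. They are named by that form, but their exons, and whether a probe also lies in the other form, were not determined here. On chromosome 1 of mm9, plus strand, the 60-base probes span positions 40504769 to 40504828 for the soluble form, 40522187 to 40522246 for the brighter membrane-form probe and 40520014 to 40520073 for the dimmer one. No capitals are used, since no part of these letters is singled out.
Il1rl1 soluble-form probe: ctctgtaacaggatcttttgtctagatttc
Il1rl1 brighter membrane-form probe: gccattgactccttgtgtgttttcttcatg
Il1rl1 dimmer membrane-form probe: ccttacccaaattgccattacagtcgagca
As scaled signals, the soluble-form probe read 0.186 in Pla2g3+/+ and 0.215 in the pool labelled Pla2g3-/- with vehicle, and 14.4 and 0.065 after AOM. The brighter membrane-form probe read 0.0852 and 0.0692 with vehicle and 2.56 and 0.106 after AOM. The dimmer one read 0.334 in Pla2g3+/+ after AOM and was not well above background on the other arrays, at 0.0081, 0.00614 and 0.01. On all 3 probes the array of Pla2g3+/+ after AOM stood far above the others.

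AOM went with a 77.2-fold rise of the soluble-form probe in Pla2g3+/+, a 30.1-fold rise of the brighter membrane-form probe and a rise of at least 20.2-fold of the dimmer one. Between the AOM pools the soluble-form probe was 221-fold lower in the pool labelled Pla2g3-/-, which put it at rank 18 from the lowest among 17195 genes. The membrane-form probes were 24.1-fold and at least 22.9-fold lower. Within the pool labelled Pla2g3-/- the probes differed: the soluble-form probe was 3.31-fold lower with AOM than with vehicle, whereas the brighter membrane-form probe was 1.54-fold higher, within 2-fold. The fall of the soluble-form probe in that pool stayed within 2-fold without scaling and with normexp and quantile normalization.

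Between the AOM pools, the mast cell markers moved with Il1rl1. Of 9 such genes, 7 were over 2-fold lower in the pool labelled Pla2g3-/- and none higher, beside 12.9% and 15.1% of all genes. The summed scaled signal of the 9 genes was 2.05 and 1.77 with vehicle and 31.8 and 1.91 after AOM. Kit, the stem cell factor receptor, gave most of the vehicle sums and 0.751 of the 1.91 in the pool labelled Pla2g3-/- after AOM. Without Kit the sums were 0.56 and 0.546 with vehicle and 31.3 and 1.16 after AOM. Mcpt1 and Mcpt2, proteases of mucosal mast cells, were 297-fold and 334-fold lower, and Cpa3, a carboxypeptidase of mast cell granules, 7.73-fold lower. Kit and Cma1, a connective tissue mast cell protease, had log2 ratios of 0.67 and 0.32. In the pool labelled Pla2g3-/-, where the soluble-form probe of Il1rl1 was lower with AOM than with vehicle, the list's median log2 ratio was 1.21. There 5 of the 9 genes rose past 2-fold and 2 fell, beside 9.67% and 15.0% of all genes. Those that rose were Cpa3, at least 5.60-fold, Cma1, 4.59-fold, Fcer1a, at least 2.54-fold, Mcpt4, 2.44-fold, and Tpsb2, 2.31-fold, and those that fell were Mcpt1 and Mcpt2, with log2 ratios of -1.64 and -1.37. No mast cell marker was below background on every array. Of 5 type 2 lymphoid markers, the 3 with a ratio were Gata3, at -2.33 on the log2 scale, Klrg1, at least 11.6-fold lower, and Il17rb, at -0.66, with sums of 0.197, 0.254, 0.538 and 0.138. The part of these cells in the Il1rl1 values was not tested.

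Between the AOM pools, most myeloid markers moved with Il1b, Il1r1 and Il1r2. In that comparison 12.9% of all genes were over 2-fold lower and 15.1% higher, the shares to set beside its counts below. Of 11 neutrophil genes, 6 of the 10 with a ratio were over 2-fold lower in the pool labelled Pla2g3-/- after AOM and Ly6g was over 2-fold higher. Their sums were 55.5 and 54.6 with vehicle and 94.4 and 62.1 after AOM, of which Csf3r, the receptor of granulocyte colony-stimulating factor, made 44.3 to 53.7 and was within 2-fold. S100a8 and S100a9, the calprotectin subunits, were 80.5-fold and 92.4-fold lower, and Ngp, a granule protein of immature neutrophils, was not well above background on any array. Without S100a9 the sums were 55.3 and 54.5 with vehicle and 58.7 and 61.7 after AOM, so S100a9 carried their difference between the AOM pools. Without Csf3r they were 6.21 and 4.80 with vehicle and 50.1 and 8.41 after AOM. Camp and Elane, also of this list, were within 2-fold, with log2 ratios of 0.24 and -0.08. Of 10 macrophage and monocyte genes with a probe, 7 of the 9 with a ratio were over 2-fold lower and Itgam, an integrin of myeloid cells, was over 2-fold higher, with sums of 32.7, 31.5, 34.8 and 24.4. Without Itgam the sums were 14.0, 16.2, 28.9 and 11.8. The dimmer probes of Itgam had log2 ratios of -0.56 and 0.77 between the AOM pools, beside 1.09 on its brightest. Those of Csf1r, also of this list, had 0.01 and -1.25, beside -1.11 on its brightest. The dimmer probes of Adgre1 and Cd68, of this list as well, had -1.17 and -1.94. Lymphoid markers were lower too between the AOM pools, 5 of 7 T cell genes and 5 of 5 B and plasma cell genes past 2-fold. Their median log2 ratios were -1.48 and -2.89. With AOM over vehicle the T cell median was -0.70 in Pla2g3+/+ and -2.40 in the pool labelled Pla2g3-/-. For B and plasma cells it was -1.04 and -3.74. By their medians both lists thus fell with AOM in both genotypes, whereas Il1b rose in Pla2g3+/+. The part of myeloid and lymphoid cells in the cytokine and receptor values was not tested. Between the AOM pools, Wnt targets of colon tumor cells were also lower, 6 of 7 past 2-fold, with sums of 5.94, 5.79, 52.0 and 5.44.

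**Figure D4:**
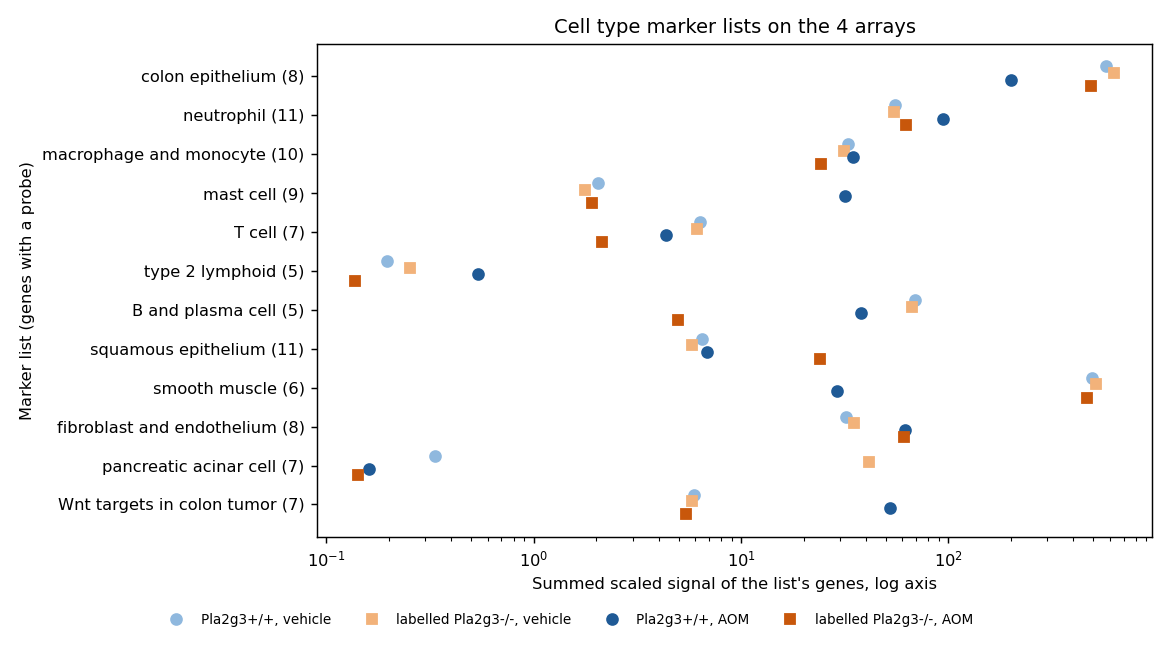
Summed scaled signal of each marker list on the 4 arrays (log axis), with the number of genes that have a probe in brackets. The mast cell list stands at 31.8 in Pla2g3+/+ after AOM and between 1.77 and 2.05 elsewhere, where Kit gives 0.751 to 1.49 of it, while the smooth muscle list is at 28.9 in that pool and between 466 and 516 elsewhere.

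The sequences before the transcription starts are shown for Il1rl1, Il1b, Il1r2 and Il1a, the 4 members with the largest ratios between the AOM pools. They are the 250 bases before each start in RefSeq on GRCm38.p6, a different build from the probe positions. Capitals mark exact matches to TATAAA on the gene's strand and, on both strands, to AGATAA, the motif of GATA factors, to TGANTCA, the motif of AP-1, and to GGNNNTTCC, a loose motif of NF-κB. No matches of different motifs overlapped in these 5 sequences. The upstream windows lie at chr2:129309973-129310222 on the minus strand for Il1a, chr2:129371140-129371389 on the minus strand for Il1b, chr1:40085843-40086092 on the plus strand for Il1r2, and chr1:40429320-40429569 and chr1:40439379-40439628 on the plus strand for the start sites of Il1rl1.
Il1a: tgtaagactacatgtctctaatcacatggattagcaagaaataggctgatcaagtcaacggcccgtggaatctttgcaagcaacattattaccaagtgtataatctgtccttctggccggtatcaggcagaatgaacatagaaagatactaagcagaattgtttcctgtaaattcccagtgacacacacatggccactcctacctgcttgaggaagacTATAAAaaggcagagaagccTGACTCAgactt
Il1b: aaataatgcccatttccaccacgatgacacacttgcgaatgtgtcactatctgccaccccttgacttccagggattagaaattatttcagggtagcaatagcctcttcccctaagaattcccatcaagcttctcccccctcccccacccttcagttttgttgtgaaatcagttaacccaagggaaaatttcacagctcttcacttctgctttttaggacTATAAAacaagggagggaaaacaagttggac
Il1r2: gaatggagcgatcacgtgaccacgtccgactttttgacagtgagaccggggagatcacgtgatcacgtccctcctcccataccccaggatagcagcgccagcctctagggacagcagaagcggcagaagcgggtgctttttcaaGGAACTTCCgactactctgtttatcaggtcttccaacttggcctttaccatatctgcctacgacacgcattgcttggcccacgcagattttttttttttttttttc
Il1rl1, upstream start site: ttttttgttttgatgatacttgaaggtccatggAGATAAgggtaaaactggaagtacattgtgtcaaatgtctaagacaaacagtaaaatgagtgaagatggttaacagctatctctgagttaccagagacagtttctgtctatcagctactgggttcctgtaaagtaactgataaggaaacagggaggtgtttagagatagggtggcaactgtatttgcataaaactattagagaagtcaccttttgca
Il1rl1, downstream start site: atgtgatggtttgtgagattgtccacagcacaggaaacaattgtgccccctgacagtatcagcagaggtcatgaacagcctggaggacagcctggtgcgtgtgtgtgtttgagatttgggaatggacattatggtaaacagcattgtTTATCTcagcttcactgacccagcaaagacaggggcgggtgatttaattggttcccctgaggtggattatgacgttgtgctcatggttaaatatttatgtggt
TATAAA began at position -32 from the start of Il1a and at -31 from that of Il1b. Over the 14 start sites listed for the 9 members, it occurred at 4, of Il1a, Il1b and Il33, and at 7.59% of 32851 start sites over all genes. AGATAA occurred at both start sites of Il1rl1 and at no other member's, beside 9.99% of all start sites. TGANTCA occurred at 1 start site each of Il1a and Il1rn, beside 6.75%, and GGNNNTTCC at 4 start sites, of Il1rn, Il18bp, Il1r1 and Il1r2, beside 15.7%. These are matches of letters in a short window and not measured binding sites.

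The genes whose level over the 4 arrays was most like that of a member were found by the Euclidean distance between centred log2 signals, among 14787 genes well above background on all 4 arrays. For Il1b the closest were Il11, R3hdml, Asprv1, Tnfrsf11b and Cited1, at distances of 0.27 to 0.70. Il11, an interleukin-6 family cytokine, had scaled signals of 0.0548, 0.041, 2.8 and 0.0353 in the pools labelled Pla2g3+/+ and Pla2g3-/- with vehicle and then with AOM. Tnfrsf11b, the decoy receptor osteoprotegerin, had 0.215, 0.222, 8.82 and 0.173. For Il33 the closest were Vezt, Sik1, Nid1, Epha2 and Tnfsf9, at 0.12 to 0.22. For Il18 they were Lhx6, Tacr2, Oacyl, Slc8a3 and Rhox2h, at 0.055 to 0.071. The points of such a profile are 4 pools on 1 slide, and many genes can lie as close by their overall pattern.

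The rest of the pathway was taken from lists of other ligands, other receptors, adaptors, inflammasome genes and NF-κB feedback genes. Among 5 other family ligands, Il1f6, Il1f8 and Il1f9, the IL-36 agonists, were well above background on the array of Pla2g3+/+ after AOM only, at 0.0625, 0.0211 and 0.0384. They were at least 4.28-fold, 1.44-fold and 2.63-fold lower in the pool labelled Pla2g3-/- after AOM. Il1f5 and Il1f10 were not well above background on any array. These ligands thus had the pattern of Il1a, at levels near background.

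Among 5 other family receptors, 1 was over 2-fold lower after AOM in the pool labelled Pla2g3-/- and none higher, beside 12.9% and 15.1% of all genes. This was Il18rap, the accessory chain of the IL-18 receptor, which read 0.0746 in Pla2g3+/+ after AOM, was not well above background elsewhere, and was at least 5.11-fold lower. Il18r1, the ligand-binding chain, had a log2 ratio of -0.76, and Il1rap, the shared accessory chain of IL-1 and IL-33 receptors, of 0.07. Sigirr, an inhibitory family receptor, had a log2 ratio of 0.30. Il1rap and Il18r1 rose with AOM in both genotypes, Il1rap 2.11-fold in Pla2g3+/+ and 2.36-fold in the pool labelled Pla2g3-/-.

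None of the 11 adaptors and kinases downstream of the receptors differed by more than 2-fold between the AOM pools. Of all genes 15.1% were higher and 12.9% lower past that threshold. All 11 were well above background on all 4 arrays. Their log2 ratios ran from -0.57 for Irak1, a receptor-associated kinase, to 0.36 for Tab2, an adaptor of the kinase TAK1. Traf6, the ubiquitin ligase after the receptor, had -0.51 and Tollip, an inhibitor of the pathway, 0.31. Myd88 had scaled signals between 1.43 and 1.65 on the 4 arrays. The 9 members ran from -7.79 to 1.21 on the same scale.

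Of 15 inflammasome and processing genes, 9 passed 2-fold between the AOM pools, 5 of them higher in the pool labelled Pla2g3-/- and 4 lower, beside 15.1% and 12.9% of all genes. Mefv, which encodes the sensor pyrin, was 7.73-fold lower, at 0.128 against 0.986. Nlrp6, an epithelial sensor, was 7.04-fold higher, at 1.1 against 0.156, and Pycard, the adaptor ASC, 3.44-fold higher, at 20.9 against 6.08. Casp1, which cleaves the precursors of IL-1β and IL-18, read 24.4 and 22.7 with vehicle and 7.35 and 15.0 after AOM, the same order as Il18. Naip1, a sensor of bacterial secretion proteins, was 3.60-fold higher, although the Naip genes are close paralogs whose probes may cross-hybridize.

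Of 11 NF-κB feedback genes, 1 was over 2-fold lower between the AOM pools and none higher, beside 12.9% and 15.1% of all genes. It was Nfkbie, the inhibitor IκBε, at 0.142 against 0.641. Bcl3, an IκB-like coactivator, had a log2 ratio of -0.66, while Birc3, a ubiquitin ligase, and Nfkbiz, an inducible IκB-like protein, had 0.59 and 0.58. The list's median was -0.19 beside 0.03 for all genes.

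**Figure D5:**
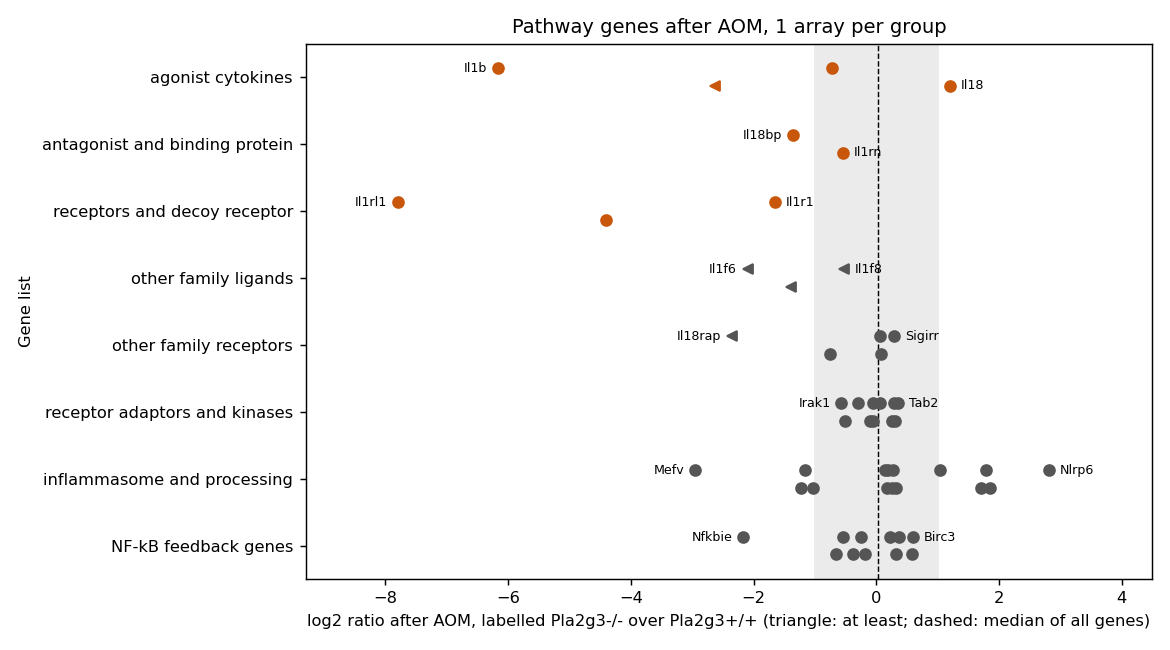
log2 ratio after AOM, the pool labelled Pla2g3-/- over Pla2g3+/+, for each gene of the member lists (orange) and pathway lists (grey), with triangles for bounds, the band for 2-fold and the dashed line for the median of all genes. The adaptors all lie inside the band, while the receptors of the member list run from -7.79 to -1.66.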

How the data were processed

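Each of 4 one-color arrays (Whole Mouse Genome, 60-base probes, all on 1 slide) measured 1 RNA pool, with 27.7 ng labelled. Groups came from the sample labels. The authors deposited the spot intensity of Feature Extraction 11.5.1.1, background-subtracted and detrended within the array, and a table of the ratio of that intensity to its array's 75th percentile on the linear scale, which was checked against the arrays. Control and outlier spots were left out, log2 intensities of repeated spots averaged and the 75th percentile subtracted. Probes were named through RefSeq of GRCm38.p6, so that 31372 probes matched 22371 genes, each represented by its brightest probe. Probe positions on mm9 were read from the array files. A signal not well above background was set to its own value or, if higher, to the dimmest spot that passed detection on that array, giving a bound, and no ratio was given where both were dim. No test was possible with 1 array per group, and the number of arrays limits the precision. Over probes printed at 10 or more positions, the log2 ratio had a median SD of 0.048 to 0.056 between positions. The 13 alternatives were quantile normalization, no scaling, the median, the percentile over detected probes, normexp (limma 3.58.1, offset 50) with quantile normalization, no filter, detection on both arrays, a floor, the mean over probes, the dimmest probe, the deposited table, and thresholds of 1.5-fold and 4-fold. The scripts used Python 3.11.15 and R 4.3.3. Members, lists and tests were chosen with earlier results of these data known. Named genes were all member probes, from each pathway list up to 4 genes with the largest ratio after AOM, the 5 genes most like Il1b, Il33 and Il18, and marker genes beside a result, together with Pla2g3 and, chosen after their values were seen, Il1f5, Il1f10, Casp1 and Myd88.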

Additional observations from a re-analysis of the deposited data

Results flagged for a closer look

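For 2 genes among the members and pathway lists, the ratio of AOM to vehicle passed 2-fold in opposite directions in the genotypes. Il1rl1, on its soluble-form probe, had a log2 ratio of 6.27 in Pla2g3+/+ and -1.73 in the pool labelled Pla2g3-/-. Nfkbie had 1.14 and -1.05. With 1 array per group neither difference was tested.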

How the results depend on the processing

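The 8 counts of members past 2-fold stayed within 1.5 times of their values under the alternatives, with these exceptions. The single member lower with AOM in Pla2g3+/+, Il18, gave a count of 0 without scaling and at the 4-fold threshold. The single member lower with AOM in the pool labelled Pla2g3-/-, Il1rl1, gave a count of 0 without scaling, with normexp and quantile normalization, with the mean over probes, with the dimmest probe and at 4-fold, and a count of 2 at 1.5-fold. At the 4-fold threshold the count higher after AOM in the pool labelled Pla2g3-/- over Pla2g3+/+ fell from 1 to 0, and that of members higher with AOM in the pool labelled Pla2g3-/- from 3 to 0. Inside the tolerance of 1.5 times, the 6 members lower after AOM in the pool labelled Pla2g3-/- became 4 with normexp and quantile normalization. The deposited table holds the same signals at nearly the same scale, so it could hardly move a count. Among the members, the mean over probes and the dimmest probe could alter Il1rl1 only. No member past 2-fold changed direction under any alternative. Without scaling the median log2 ratio of all genes moved by 1.04 for AOM over vehicle in Pla2g3+/+, by 0.84 in the pool labelled Pla2g3-/- and by -0.16 between the AOM pools. With normexp and quantile normalization together the ratio of Il1a between the AOM pools was -0.94 on the log2 scale, within 2-fold; the cause was not tested. Every value rests on 1 pool of mice, so variation between mice was not measured. No paired analysis was possible because each group has 1 array.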
